A study of Mus musculus with 44 samples.

Results

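Translating ribosome affinity purification (TRAP) of microglia was compared between tamoxifen and control mice in the whole homogenate of dorsal cortex and hippocampus. The members were the 6 HTSeq count libraries titled MG_TRAP in the first set of the series, 3 of tamoxifen mice (replicates D to F) and 3 of control mice (replicates A to C), out of 44 libraries in all. They were taken by their titles. The comparison and the gene lists used here were chosen with earlier results of these data known. All mice carried 1 copy of a Cx3cr1-CreERT2 allele and 1 copy of a floxed RPL10a-GFP allele, so the control mice had both transgenes as well. Mice of the tamoxifen group were dosed with tamoxifen (100 mg/kg) on postnatal days 15, 17 and 19. Control mice received the oil and ethanol vehicle according to the sample labels, whereas the design text of the series calls them untreated. Brains were taken on postnatal days 28 to 29. Libraries named Input, the total RNA of homogenate before immunoprecipitation (3 per treatment, with the same letters), served for reference. The labels do not say whether the replicates of a group were separate animals, so the spread between them may be partly technical, and they do not give the sex of the mice.

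Microglia are the resident macrophages of the brain. They depend on Csf1r signalling and read out their surroundings through receptors such as P2ry12, Trem2 and Cx3cr1. CreERT2 is a Cre recombinase that tamoxifen activates. Here it was driven by Cx3cr1, which in the brain is expressed by microglia and by macrophages of the brain borders. The recombined allele makes a ribosomal protein of the large subunit fused to GFP, and an antibody to GFP then pulls down the tagged ribosomes with the messenger RNA on them. The same pulldown from control mice, not given tamoxifen, served as the background here. Whether the control mice made some tagged ribosomes was not tested. Cre under Cx3cr1 does not separate microglia from border macrophages, and a pulldown from homogenate cannot tell fewer tagged cells from less RNA per cell.

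The promoter of Cx3cr1 drives the recombinase, and its transcript stood higher in the tamoxifen pulldown. The 250 bases before its RefSeq start (GRCm38.p6, chr9:120068297-120068546, minus strand, 5′ to 3′) are shown first. The same window of Slamf9, a receptor of the SLAM family on macrophages, follows (chr1:172475110-172475359, plus strand). It is shown because the gene is among the 10 largest differences by the rule given below, and its window holds the binding motif of the macrophage factor PU.1. Capitals mark that motif, GAGGAAGT, searched on both strands.
Cx3cr1: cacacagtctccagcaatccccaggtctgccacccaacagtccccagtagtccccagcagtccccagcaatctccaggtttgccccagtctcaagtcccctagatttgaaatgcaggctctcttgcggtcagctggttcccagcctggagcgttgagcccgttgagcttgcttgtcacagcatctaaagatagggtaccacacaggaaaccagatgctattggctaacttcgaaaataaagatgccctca
Slamf9: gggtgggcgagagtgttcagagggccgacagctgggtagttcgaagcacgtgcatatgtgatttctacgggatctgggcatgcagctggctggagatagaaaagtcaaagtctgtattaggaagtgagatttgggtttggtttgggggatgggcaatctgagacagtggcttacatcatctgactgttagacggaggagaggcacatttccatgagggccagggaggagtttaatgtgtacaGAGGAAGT
In Slamf9 the motif occupies the last 8 bases before the start, and the Cx3cr1 window does not hold these letters. The motif was in 2.44% of all 32851 RefSeq promoter windows of this length and in 2.25% of the 13985 windows of genes tested here. It was in 4.35% of 1794 windows of genes whose tamoxifen values all lay above the control values, and in 1.23% of 2350 windows of genes whose tamoxifen values all lay below. For the microglial list described next, 18 of 25 genes had a window, and none of their 22 windows held the motif. A match is a description of the letters and not a bound site.

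The MG_TRAP libraries differed in depth and in the share of reads that did not align. Control libraries A, B and C held 12712307, 1522779 and 9529240 reads assigned to genes, and tamoxifen libraries D, E and F held 13289847, 4536473 and 3123775. A floor of 3 reads, which a count of 0 cannot exclude, therefore lay between 0.226 CPM (counts scaled to library size) in tamoxifen D and 1.98 CPM in control B. Unaligned reads made up 18.8%, 22.5% and 21% of all reads in control B and tamoxifen E and F, against 2.71% to 4.98% in control A, control C and tamoxifen D. The class of over 10% unaligned reads thus held 1 control and 2 tamoxifen libraries, and values within each class are given beside the main results. Across the 14771 genes tested, log2 CPM values correlated with Pearson's r of 0.658 to 0.766 among control libraries, 0.701 to 0.834 among tamoxifen libraries and 0.499 to 0.63 between the groups. These correlations are across genes, which are not independent replicates.

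The microglial list held surface, secreted and adaptor genes of homeostatic microglia, and all 25 of its genes stood higher with tamoxifen without overlap of the groups: each of the 3 tamoxifen values lay above each of the 3 control values. Such a separation upward was seen in 1981 of all 14771 genes tested (13.4%), and downward in 2218 (15%). The median fitted difference of the list, tamoxifen minus control on the log2 scale, was 2.91, against -0.14 over all genes tested, with single genes between 2.09 and 4.85. No gene of the list and none of all 14771 passed an adjusted p of 0.05 in edgeR's quasi-likelihood test on the 24 libraries of the first set, where the smallest adjusted p was 0.0582. At an unadjusted p under 0.05, 21 of the 25 genes were higher and none lower, against 1019 genes (6.9%) higher and 1332 (9.02%) lower among all. The balance of directions depended on scaling, as the median difference of all genes, -0.14, was 0.12 with relative log expression factors and -0.48 with total counts. The genes without overlap then numbered 2410 upward and 1862 downward, and 1517 and 2664, in the same order. The microglial list stayed at 25 and 23 genes of 25 upward.

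Cx3cr1, the fractalkine receptor and the gene that carries the Cre allele, had log2 CPM values of 5.92, 3.89 and 6.96 in the control libraries A, B and C and 10.57, 9.98 and 10.02 in the tamoxifen libraries D, E and F. Every tamoxifen library was above every control library, and control B was the lowest. The fitted difference was 4.16 (SE 1.15) with an adjusted p of 0.146 in edgeR's test, and mean control CPM was 5.58% of mean tamoxifen CPM. The counts do not separate the transgenic allele of Cx3cr1 from the intact one. Rpl10a, the endogenous gene of the tagged ribosomal protein, had values of -0.19, -1.85 and 4.19 in control and 3.37, 2.65 and 6.12 in tamoxifen libraries, and the groups overlapped. Its reads numbered 10, 0 and 262 in the control libraries and 172, 28 and 204 in the tamoxifen libraries, so that control A and B were near or at the floor. The fitted difference was 2.18 (SE 2.17) with an adjusted p of 0.666 in edgeR's test, and the counts do not separate the fusion transcript from the endogenous one.

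Receptors of homeostatic microglia followed the same order of groups. P2ry12, the purinergic receptor that directs microglial processes toward ATP, had log2 CPM values of 8.27, 6.92 and 9.51 in the control libraries A, B and C and 12.06, 11.28 and 10.93 in the tamoxifen libraries D, E and F. Csf1r, the receptor whose signalling keeps microglia alive, had values of 8.83, 6.67 and 9.16 in control and 11.50, 10.38 and 10.24 in tamoxifen libraries. Tmem119, a surface protein used to tell microglia from other macrophages, had values of 7.40, 6.13 and 8.03 in control and 11.09, 9.97 and 9.47 in tamoxifen libraries. In all 3 genes the lowest tamoxifen value was library F and lay above control C, the highest control library. Their fitted differences were 2.91, 2.27 and 2.96 (SE 1.05, 0.94 and 1.13), with adjusted p-values of 0.243, 0.251 and 0.243 in edgeR's test. Control CPM stood at 13.3%, 20.7% and 12.8% of tamoxifen CPM.

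Trem2 and its signalling adaptor Tyrobp, which couple lipid sensing to phagocytosis, were also separated. Trem2 had values of 5.76, 6.03 and 6.84 in control and 9.98, 9.81 and 9.54 in tamoxifen libraries, all 3 tamoxifen values within a narrow range. Tyrobp had values of 6.41, 9.46 and 7.63 in control and 11.10, 13.20 and 13.65 in tamoxifen libraries. Within each group Tyrobp was highest in the libraries with many unaligned reads, and the lowest tamoxifen library, D, still lay above control B. Their fitted differences were 3.50 (SE 1.10) and 4.64 (SE 1.02) with adjusted p-values of 0.214 and 0.0635 in edgeR's test. Aif1, which encodes the calcium-binding microglial stain Iba1, had the largest fitted difference of the list at 4.85 (adjusted p 0.0699 in edgeR's test), with values of 6.30, 8.93 and 7.33 in control and 10.18, 13.05 and 13.46 in tamoxifen libraries. Csf3r, the receptor of granulocyte colony-stimulating factor, had the smallest at 2.09 (SE 1.87), and control B held no read of it. Over the whole list, control CPM was a median of 13.3% of tamoxifen CPM, from 3.48% in Aif1 to 23.4% in Csf3r.

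**Figure D1:**
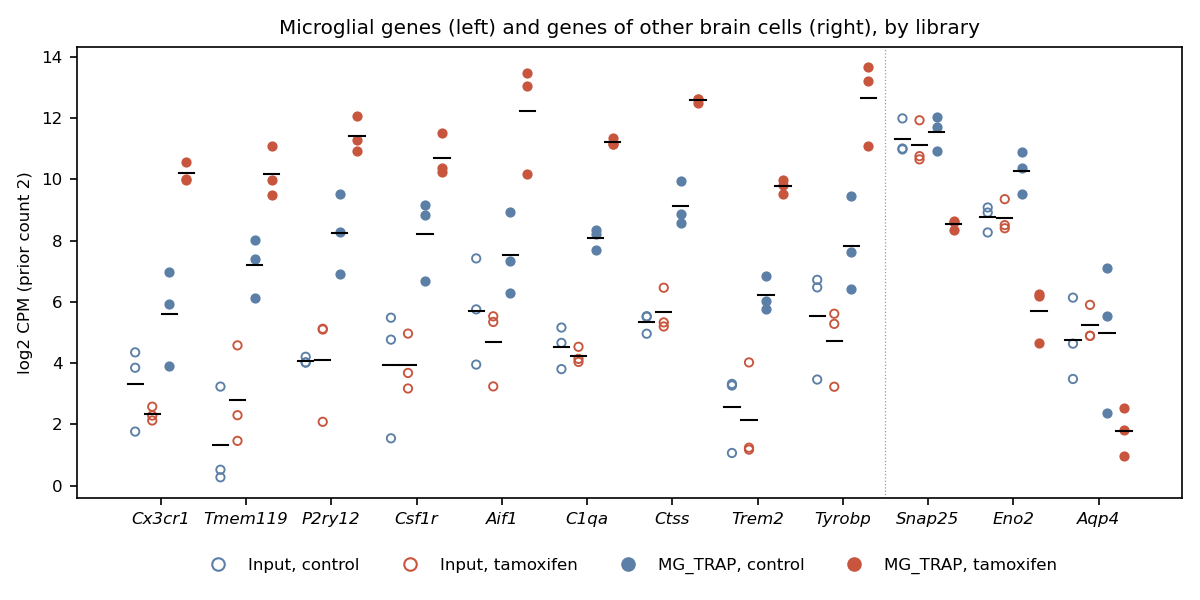
Log2 CPM (prior count 2) of 9 microglial genes and of 3 genes of other brain cells, with 1 point per library, open for Input and filled for MG_TRAP, blue for control and red for tamoxifen, and black bars for group means (n = 3). Filled red points of the 9 microglial genes lie above the filled blue ones, and those of Snap25 and Eno2 lie below them.

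The size of the difference was read within both classes of unaligned reads, since its direction there follows from the separation. Tamoxifen D minus the mean of control A and C gave a median of 3.18 over the 25 genes, and the mean of tamoxifen E and F minus control B gave 3.88. Over all genes the same differences were -0.18 and 0.35. With any 1 of the 6 libraries left out, the median lay between 2.80 and 3.80. Of all assigned reads, the 25 genes took 0.44%, 0.431% and 1.07% in control A, B and C and 5.38%, 4.59% and 4.19% in tamoxifen D, E and F. In the 6 Input libraries they took 0.0567% to 0.0868%, with tamoxifen and control libraries interleaved.

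Other fits called genes, microglial genes among them. DESeq2 called 451 genes higher (3.05%) and 386 lower (2.61%), and limma voom 537 (3.64%) and 660 (4.47%). EdgeR fitted on the 12 Input and MG_TRAP libraries alone called 220 higher (1.59%) and 271 lower (1.96%), and 539 (3.91%) and 606 (4.39%) with a term for the class of unaligned reads. These last fits were chosen after the data had been seen. Of the microglial list, DESeq2 called 14 genes higher, limma voom 22, and the 12-library edgeR fits 14 and 20, and none was called lower. In the 12-library edgeR fit the adjusted p was 0.0185 for Cx3cr1, 0.0394 for P2ry12, 0.0328 for Tyrobp and 0.0307 for Trem2, but 0.0665 for Tmem119 and 0.099 for Csf1r. All 4 fits called 139 genes higher (1.01% of 13764 genes tested in all of them) and 149 lower (1.08%), and each of these 288 genes was also without overlap. The 4 fits and the overlap use the same MG_TRAP libraries, so they are not independent of each other. Of the microglial list, 12 genes were in that set, among them Cx3cr1, P2ry12, Siglech, Gpr34, Trem2, Tyrobp, Aif1 and Itgam. EdgeR on the compared MG_TRAP libraries alone, a fit outside these 4, called 0 genes (smallest adjusted p 0.0532).

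Transcription factors and receptors that set up microglial identity were a smaller and more mixed group. Of 15 tested, 11 stood higher without overlap (13.4% of all genes did) and 4 overlapped. The median difference was 2.92 (3.8 without control C). Maf, a basic leucine zipper factor of tissue macrophages, had values of 3.68, 5.57 and 3.30 in control and 8.16, 9.52 and 9.74 in tamoxifen libraries and a fitted difference of 4.77 (SE 1.20, adjusted p 0.123, edgeR). Cebpa, a myeloid factor, had values of 2.95, -0.39 and 2.94 in control and 6.69, 6.52 and 5.47 in tamoxifen libraries, with control B near the floor at 1 read. Both Maf and Cebpa were clearly separated. Mef2c, a factor that neurons also express, had values of 9.81, 10.45 and 9.06 in control and 8.35, 10.21 and 10.14 in tamoxifen libraries, so the groups overlapped and the fitted difference was -0.10 (SE 0.85). Ikzf1, a lymphoid and myeloid zinc finger factor, overlapped as well because control B reached 6.29, close to the tamoxifen values of 5.93, 6.35 and 6.09.

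Complement genes, whose C1q products tag synapses and debris for removal, gave 8 of 9 tested genes higher without overlap (13.4% of all genes). Their median difference was 3.22, or 3.12 with the 1 gene at the count floor set to its lower bound. Such genes, here and in the lists that follow, could not pass the filter through control MG_TRAP libraries, and counts that include them are descriptions. C1qa, a chain of C1q, had log2 CPM values of 7.68, 8.36 and 8.21 in control and 11.17, 11.36 and 11.16 in tamoxifen libraries. The 3 tamoxifen values lay close together and well above the control values. The fitted difference was 3.12 (SE 0.97) with an adjusted p of 0.21 in edgeR's test, and of 0.0184 in the 12-library edgeR fit. C5ar1, the receptor of the complement fragment C5a, had 0, 0 and 0 reads in control and 16, 47 and 43 in tamoxifen libraries, which makes it at least 5.84-fold higher against a floor of 3 reads per library (3.77-fold without tamoxifen F). Itgb2, the beta chain of the complement receptors, differed by 2.59 without overlap. Cfp, the activator properdin, overlapped, with no read in control A, control B or tamoxifen D. C3 had no read in any MG_TRAP library, and Itgax was under the filter.

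Genes of phagocytosis (Fc receptors, their adaptors, and engulfment receptors) gave 14 of 21 tested higher without overlap (13.4% of all genes). Their median was 2.43 (3.83 without control C). Plcg2, the phospholipase downstream of Trem2 and Fc receptors, had values of -1.13, 1.44 and 2.22 in control and 6.72, 6.86 and 7.07 in tamoxifen libraries and a fitted difference of 5.65 (SE 2.08, adjusted p 0.243, edgeR). Scarb2, a lysosomal membrane receptor found in many cell types, overlapped at 0.43, and Megf10, an engulfment receptor of astrocytes, had no read in any MG_TRAP library.

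Lysosomal genes had a smaller median. Of 22 tested, 15 stood above without overlap (13.4% of all genes did), with a median of 1.68 (2.28 without control C). Control CPM was a median of 31.2% of tamoxifen CPM. Ctss, a cathepsin of antigen-presenting cells, had log2 CPM values of 8.86, 8.57 and 9.94 in control and 12.62, 12.63 and 12.49 in tamoxifen libraries, a fitted difference of 3.33 (SE 0.81) and an adjusted p of 0.0986 in edgeR's test. All 3 tamoxifen values of Ctss lay close together and above every control value. Ctsh, an aminopeptidase cathepsin, and Npc2, which carries cholesterol out of lysosomes, differed by 3.91 and 3.38. Psap, the precursor of the saposins that help degrade sphingolipids, overlapped at -0.48.

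Antigen presentation genes gave 9 of 13 higher without overlap (13.4% of all genes). Their median was 2.89 (2.66 with 2 genes at their bounds, and 4.07 without control C). Psmb9, an immunoproteasome subunit, had values of 2.10, -1.85 and 2.29 in control and 7.0, 6.85 and 6.40 in tamoxifen libraries, with no read in control B. Among the class II genes H2-Ab1 was separated narrowly, with a lowest tamoxifen value of 2.95 and a highest control value of 2.92, and H2-Aa and H2-Eb1 overlapped. In each of these 3 class II genes at least 1 library held no read.

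Chemokine and cytokine genes gave 12 of 14 tested higher without overlap (13.4% of all genes). Their median was 4.13 (3.65 with 3 genes at their bounds, and 7.76 without control C). Ccl3, a chemokine that activated microglia release, had 0, 0 and 0 reads in control and 422, 63 and 39 in tamoxifen libraries, at least 11.7-fold higher. Csf2rb, the shared beta chain of the GM-CSF receptor, had 0, 0 and 0 reads in control and 183, 33 and 15 in tamoxifen libraries, at least 5.21-fold higher. No control library held a read of either gene and each tamoxifen library held several. Il10ra, the receptor of the anti-inflammatory cytokine IL-10, differed by 2.18 without overlap, and Csf2ra, the other chain of the GM-CSF receptor, overlapped at 1.61. Cxcl10, Il1b, Il6 and Tnf were under the filter, with at most 7 reads in any MG_TRAP library. Interferon response genes gave 8 of 15 higher without overlap (13.4% of all genes) and 7 overlapping. Their median was 3.22 (2.92 with 3 genes at their bounds, and 4.17 without control C). Ifit1 had 0, 24 and 115 reads in control and 0, 0 and 0 in tamoxifen libraries, and its groups overlapped because control A held none.

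**Figure D2:**
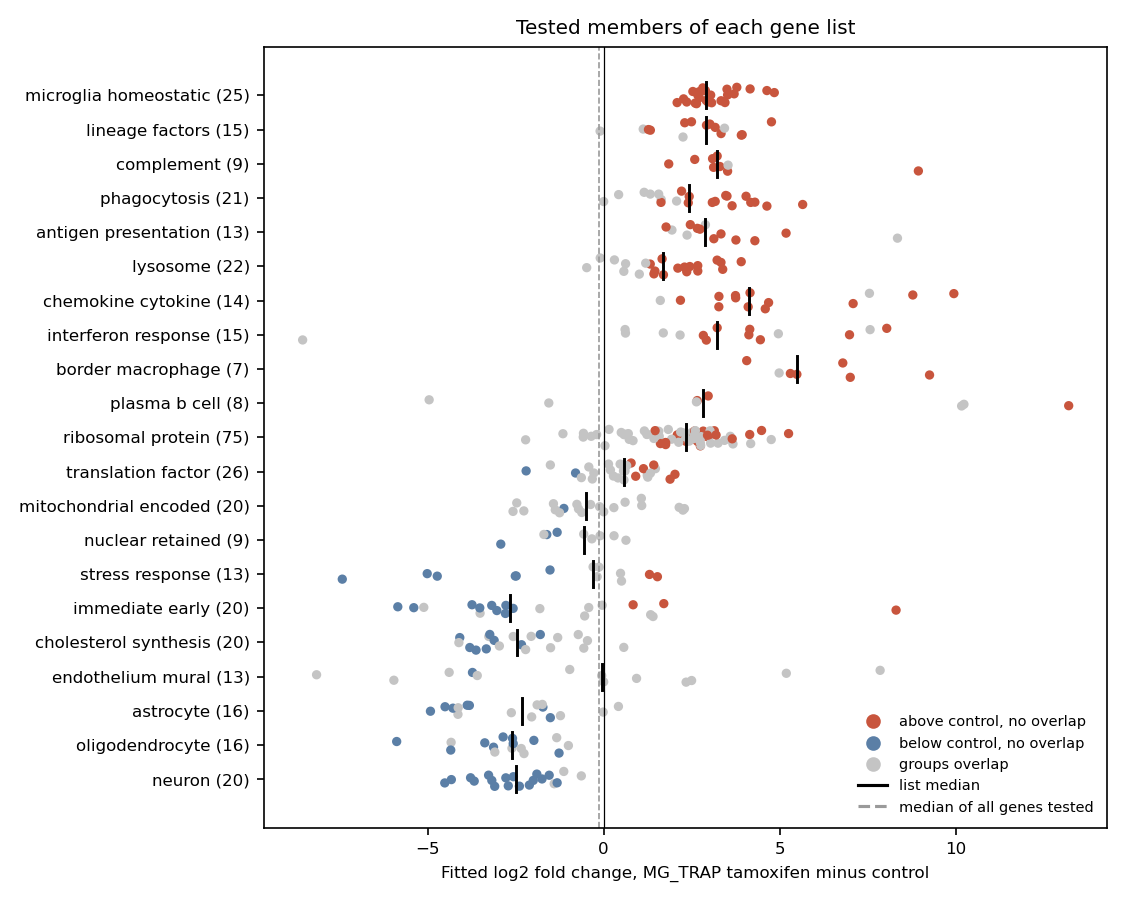
Fitted log2 fold change (tamoxifen minus control, MG_TRAP) of each tested gene of 21 gene lists, with 1 point per gene, red or blue where the 3 tamoxifen values all lay above or below the 3 control values, grey where they overlapped, black bars for list medians and a dashed line for the median of all genes tested. The microglial list lies wholly to the right between 2.09 and 4.85, the neuron list lies wholly to the left between -4.51 and -0.63, and values of genes with no read in a group depend on the prior count.

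Markers of other immune cells were checked because Cx3cr1-driven Cre can recombine in related cells. Of 11 border macrophage markers, 7 were tested and 4 were under the filter. Some of the 7 had almost no reads in control libraries and passed the filter through the libraries where they were high, so no count or median of them is given. Lyve1, a hyaluronan receptor of perivascular macrophages, had 0, 0 and 0 reads in control and 398, 27 and 8 in tamoxifen libraries, at least 7.24-fold higher, or 2.91-fold without tamoxifen D. F13a1, a transglutaminase of border macrophages, had 0, 1 and 0 reads in control and 627, 15 and 11 in tamoxifen libraries, at least 9.94-fold higher, or 2.38-fold without tamoxifen D, which held most of its reads. The summed share of all 11 markers was at most 0.00172% of reads in control and 0.013% to 0.0245% in tamoxifen libraries, where the microglial list took 4.19% to 5.38%, and Siglec1 and Clec12a had no read. Their part in the microglial result was not tested. Of 12 T and natural killer cell markers 8 had no read in any MG_TRAP library, among them Cd3d, Cd3e and Cd8a, and of 11 monocyte and neutrophil markers 6 had none, among them Ly6c2 and S100a9. No tested gene of these lists was separated, but 2 monocyte and neutrophil genes and 1 T and natural killer cell gene stood higher without tamoxifen D (23.2% of all genes did), and 1 T and natural killer cell gene stood lower without control B (20.4% of all genes).

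Genes of plasma cells and B cells were mixed. Igkc, the kappa light chain made by plasma cells, had 0, 0 and 0 reads in control and 3, 2 and 1455 in tamoxifen libraries, so its values rest on tamoxifen F while D and E were at or under the floor. In edgeR's test the adjusted p was 0.0635. Of the 15 plasma cell and B cell genes, 8 were tested and 3 were higher without overlap (13.4% of all genes). The 3 were Igkc, Ighm and Cd79b (the last pair named after their values were seen). Without tamoxifen D 4 were higher (23.2% of all genes), and without control B 1 was lower (20.4% of all genes). Cd79a and Ms4a1, both defining markers of B cells, had no read in any MG_TRAP library.

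Genes of neurons were lower in the tamoxifen pulldown. Of 20 tested neuron genes, 17 stood below without overlap, against 15% of all genes, and none above, with a median of -2.48. Snap25, a synaptic fusion protein, had log2 CPM values of 12.05, 10.94 and 11.70 in the control libraries A, B and C and 8.60, 8.64 and 8.36 in the tamoxifen libraries D, E and F. The tamoxifen values lay close together and below every control value. The fitted difference was -3.10 (SE 0.80) with an adjusted p of 0.128 in edgeR's test and 0.0325 in the 12-library edgeR fit. Eno2, the neuronal enolase, had values of 10.90, 9.51 and 10.38 in control and 6.24, 6.20 and 4.65 in tamoxifen libraries, with an adjusted p of 0.0582 in edgeR's test. Gad1, the enzyme that makes GABA, differed by -4.33 without overlap. Grin2b, a subunit of the NMDA receptor, and Thy1, a surface protein of projection neurons, overlapped at -0.63 and -1.13. The list took 2.31%, 2.1% and 2.03% of reads in control A, B and C, close to the 2.15% to 2.7% in Input, and 0.251%, 0.39% and 0.283% in tamoxifen D, E and F. Within the classes of unaligned reads its median difference was -3.21 and -2.49.

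Genes of oligodendrocytes and astrocytes had medians near that of neuron genes, but more of them overlapped. Of 16 oligodendrocyte genes, 9 stood below without overlap (15% of all genes did) and none above, with a median of -2.60. Ugt8a, the enzyme of galactolipid synthesis, and Cspg4, the NG2 proteoglycan of precursors, had the lowest fitted differences at -5.88 and -4.34, while Opalin and Cldn11, both of myelin, were nearest to the control at -1.27 and -1.0. Of 16 astrocyte genes, 7 stood below without overlap (15% of all genes), and 12 did so without control B, where 20.4% of all genes did. Their median was -2.33, with -1.67 without control A and -3.24 without tamoxifen E. Aqp4, the water channel of astrocyte end feet, had values of 7.09, 2.36 and 5.53 in control and 2.54, 1.80 and 0.98 in tamoxifen libraries, overlapping through control B with 10 reads. Gfap and Mlc1, an astrocyte filament and membrane protein, differed by -4.51 and -4.92 without overlap. Glul and S100b overlapped at 0.42 and -0.01.

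**Figure D3:**
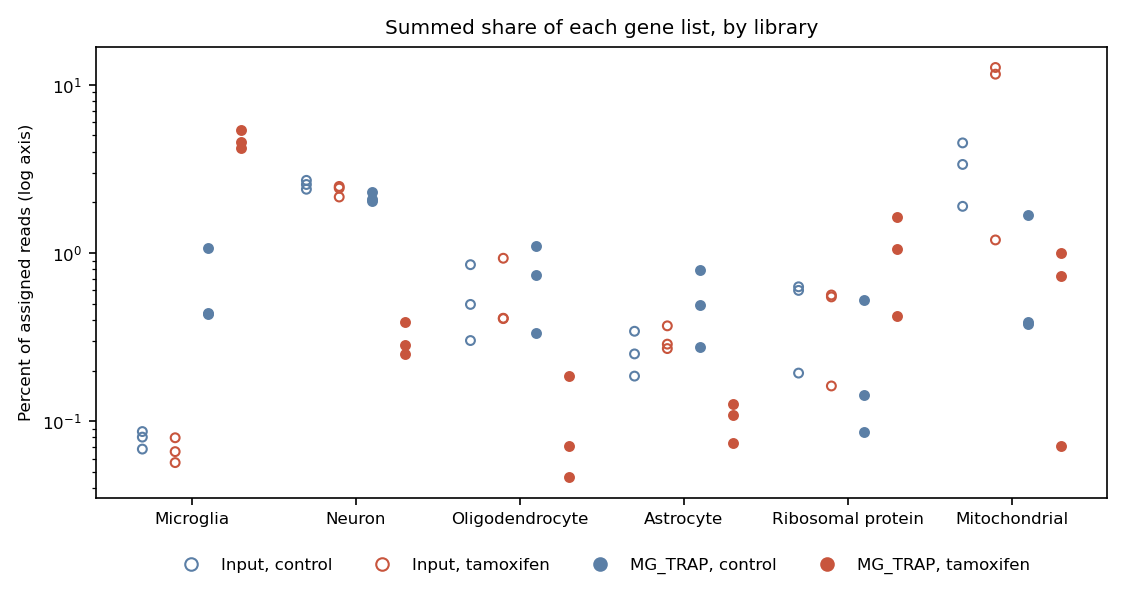
Share of assigned reads (percent, log axis) taken by 6 gene lists in each library, with open points for Input, filled points for MG_TRAP, blue for control and red for tamoxifen. The microglial share is 4.19% to 5.38% in tamoxifen MG_TRAP and 0.431% to 1.07% in control MG_TRAP, and the neuron share is 0.251% to 0.39% and 2.03% to 2.31%.

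Vascular, choroid plexus and red blood cell genes mostly overlapped. Cldn5, a tight junction protein of endothelium, had 1, 0 and 0 reads in control and 0, 0 and 15 in tamoxifen libraries, and 12 of 13 tested endothelial and mural genes overlapped, with 1 below, against 15% of all genes. Without control A 3 stood below and 1 above, against 15.7% and 18.1% of all genes. Of 5 red blood cell genes none was separated, and 2 were higher without control B (21.7% of all genes). All 7 tested choroid plexus and ependymal genes overlapped. No fitted difference of theirs was above 0, and 4 were lower at an unadjusted p under 0.05 in edgeR's test. Their median of -6.28 was -0.67 with 4 genes at their bounds, -1.70 without control A and -0.0050 without control B. Ttr, the thyroxine carrier of choroid plexus, had values of 5.51, 8.33 and 6.55 in control and 3.07, 6.21 and 6.55 in tamoxifen libraries, and Hbb-bs, a beta globin chain, had 1.45, 5.57 and 2.29 in control and 2.54, 5.80 and 5.22 in tamoxifen libraries. Both overlapped, and both were higher in the libraries with over 10% unaligned reads within each group. Malat1, a nuclear RNA, showed the same pattern with values of 10.32, 13.62 and 10.42 in control and 8.55, 12.15 and 12.80 in tamoxifen libraries and a fitted difference of -0.34 (SE 1.05). The part of read alignment in these 3 genes was not tested.

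Control MG_TRAP libraries already held more microglial signal than Input. Set against the 3 Input libraries of control mice, all 25 microglial genes had a higher mean in the 3 control MG_TRAP libraries, and 16 of them had no overlap, against 934 of all 14771 genes (6.32%), while 6.14% of all genes lay below Input in the same way. The median difference of the list, control MG_TRAP minus control Input, was 3.23 on the log2 scale, against -0.01 over all genes. In tamoxifen mice all 25 genes lay above Input without overlap (12.9% of all genes did), with a median of 7.06. Tmem119 stood 5.85 above Input in control and 7.40 in tamoxifen mice, P2ry12 4.15 and 7.32, and Cx3cr1 2.27 and 7.86. Lysosomal genes were above control Input without overlap in 12 of 22 and complement genes in 6 of 9. These lists share genes with the microglial list, such as Laptm5 and Itgam, so the counts are not independent. The source of this signal in control mice was not tested.

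Genes of the other brain cells lay closer to Input in control mice. The median difference from control Input was 0.03 for neuron genes, 0.30 for oligodendrocyte genes and 0.91 for astrocyte genes. In tamoxifen mice the same lists stood at -2.73, -2.73 and -2.35, with 17 of 20, 11 of 16 and 10 of 16 genes below Input without overlap (18.5% of all genes).

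The test of the difference between these enrichments, MG_TRAP minus Input in tamoxifen against control mice, uses the same MG_TRAP libraries and called no gene in edgeR (smallest adjusted p 0.17). At an unadjusted p under 0.05 it held 517 genes higher (3.5%) and 840 lower (5.69%). Of the microglial list 13 of 25 genes were among the higher ones and none among the lower, with a median of 2.78. DESeq2 called 209 genes for this difference, and edgeR 232 on the 12 Input and MG_TRAP libraries with the term for unaligned reads. Tyrobp had an enrichment difference of 5.72 (adjusted p 0.175, edgeR) and Cx3cr1 of 5.53 (adjusted p 0.357, edgeR). Of the neuron list 9 of 20 genes were among the lower ones and none among the higher.

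In Input itself, tamoxifen and control mice differed in no gene by edgeR (smallest adjusted p 1), with 336 genes higher (2.27%) and 116 lower (0.785%) at an unadjusted p under 0.05, while DESeq2 called 48. The microglial list had a median of -0.01 there, and the neuron list 0.02. The levels of microglial genes in Input were low, with Cx3cr1 at a mean of 3.32 ± 1.37 log2 CPM in control and 2.33 ± 0.23 in tamoxifen mice (SD, n = 3 each).

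**Figure D4:**
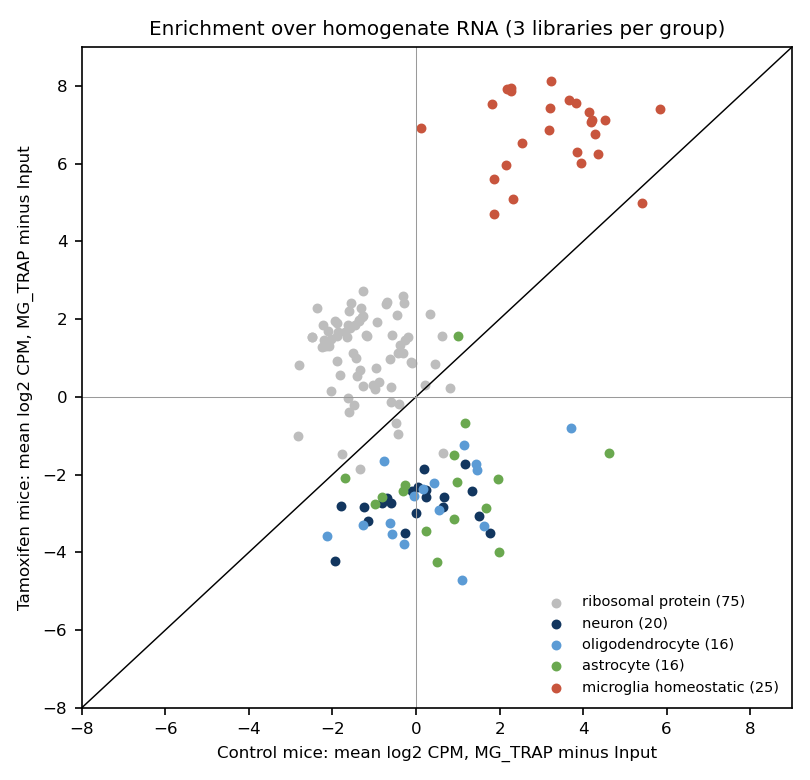
Mean log2 CPM in MG_TRAP minus mean log2 CPM in Input (3 libraries each) for the genes of 5 lists, control mice on the horizontal axis and tamoxifen mice on the vertical axis, with the line of equality in black. Microglial genes lie above 0 on both axes, with medians of 3.23 and 7.06, and neuron genes lie near 0 in control mice (median 0.03) and below it in tamoxifen mice (median -2.73).

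The genes with the most reads in the tamoxifen pulldown, not corrected for transcript length and named after their values were seen, were Tmsb4x and Cst3. Tmsb4x, the actin-sequestering thymosin beta 4, had log2 CPM values of 10.03, 13.16 and 11.28 in control and 14.27, 16.37 and 17.36 in tamoxifen libraries, and its fitted difference of 4.42 (SE 0.89) had an adjusted p of 0.0582 in edgeR's test. Cst3, the secreted protease inhibitor cystatin C, had a mean of 11.97 ± 0.84 in control and 15.09 ± 0.45 in tamoxifen libraries (SD, n = 3 each) and a fitted difference of 3.03 (SE 0.77, adjusted p 0.123, edgeR). In both genes every tamoxifen value lay above every control value.

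Large differences were ranked among genes with an average log2 CPM of at least 4 and no overlap. Symbols of Gm and a number, or ending in Rik, were left out, among them 1810024B03Rik. The 10 largest were those of Igkc, Il21r, Upk1b, Kcnk6, Klk8, Map3k8, Prkd2, Tnfrsf17, Slamf9 and Crip1. All 10 but Crip1 had at most 1 read in any control library, so their fitted values depend on the prior count and are not given. Il21r, a cytokine receptor of immune cells, had 0, 0 and 0 reads in control and 987, 149 and 48 in tamoxifen libraries, at least 24.2-fold higher. Kcnk6, a potassium channel with tandem pore domains, had 1, 0 and 0 reads in control and 1300, 456 and 82 in tamoxifen libraries, at least 46-fold higher. Slamf9 had 0, 1 and 0 reads in control and 612, 287 and 223 in tamoxifen libraries, at least 39.4-fold higher. In each of these genes the reads were spread over all 3 tamoxifen libraries. The bounds were 40.3-fold for Klk8, a secreted serine protease, 24.8-fold for Tnfrsf17, a receptor of the TNF family, 20.9-fold for Upk1b, a tetraspanin of urothelial plaques, and 14.9-fold for Map3k8, a kinase of the TNF and Toll-like receptor pathways. Prkd2, a protein kinase D, had a bound of 11.9-fold (7.34 without tamoxifen F) but only 5 reads in tamoxifen E. Crip1, a small LIM domain protein, had 5, 3 and 22 reads in control and 49, 843 and 3002 in tamoxifen libraries, with most of the signal in E and F.

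The 10 lowest differences by the same rule were those of Kcng1, Lrrc6, Pdyn, Frzb, Col8a1, Mylk, Plat, Clvs1, Ntn4 and Il17rc. Kcng1, a modifying subunit of potassium channels, had 221, 25 and 279 reads in control and 0, 0 and 0 in tamoxifen libraries, at least 14.6-fold lower. Pdyn, the precursor of dynorphin peptides of neurons, had 985, 20 and 599 reads in control and 1, 0 and 0 in tamoxifen libraries, at least 36.1-fold lower. Frzb, a secreted Wnt antagonist, had 511, 76 and 525 reads in control and 1, 0 and 0 in tamoxifen libraries, at least 34-fold lower. These genes were detected in every control library and had at most 1 read in any tamoxifen library. Plat, the tissue plasminogen activator, had 2927, 13 and 671 reads in control and 0, 4 and 1 in tamoxifen libraries, a fitted difference of -7.64 (SE 1.97) and an adjusted p of 0.128 in edgeR's test. The bounds of the others were 37.8-fold for Clvs1, 13.6-fold for Lrrc6, 11.1-fold for Col8a1, 5.86-fold for Mylk, 2.99-fold for Ntn4 and 2.3-fold for Il17rc. Single control libraries carried several of them: the bound was 11.3-fold for Clvs1 and 1.61-fold for Mylk without control B, 7.94-fold for Lrrc6 and 6.47-fold for Col8a1 without control A, and Ntn4 and Il17rc had none without control C. Over all genes, 358 had at most 3 reads in each control library and more in each tamoxifen library, and 161 showed the reverse. These counts use raw reads at unequal depth and are not directly comparable. A level of 3 reads was 1.98 CPM in control B and at most 0.963 CPM in the tamoxifen libraries.

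**Figure D5:**
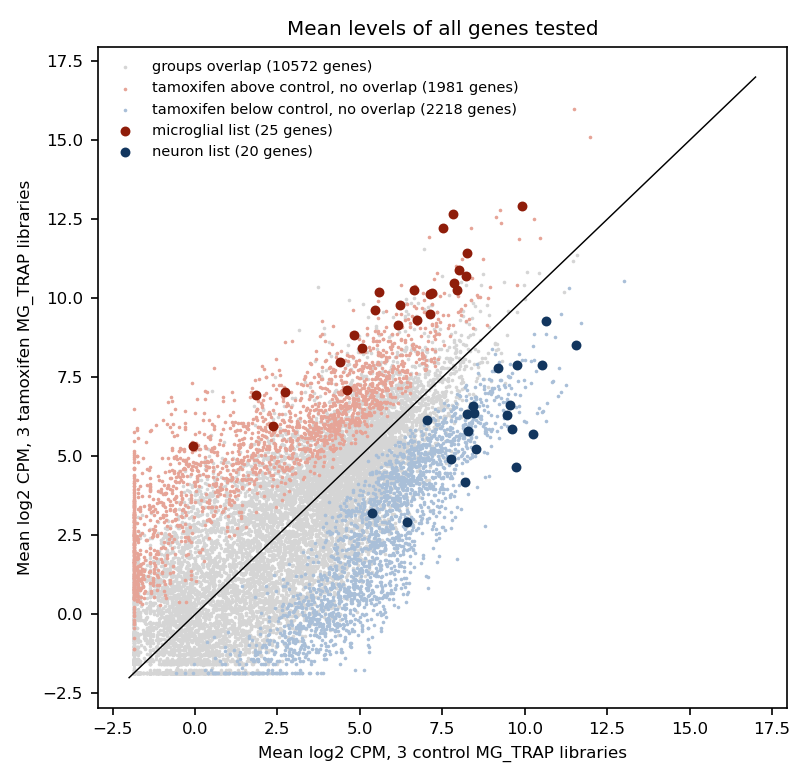
Mean log2 CPM of the 14771 genes tested in the 3 control (horizontal) and 3 tamoxifen (vertical) MG_TRAP libraries, coloured by whether the groups overlapped, with the microglial list in dark red, the neuron list in dark blue and the line of equality in black. The 1981 genes separated upward and the 2218 separated downward lie on both sides of the line over the whole range of levels.

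Transcripts of ribosomal proteins are short, abundant and carried by ribosomes in every cell. Of 75 tested, 20 stood higher without overlap and none lower, with a median of 2.34, but the count was 57 without control B (median 3.87) and 57 without tamoxifen D, and 11 of 63 when libraries were thinned to equal depth. Over all genes the upward share was 13.4% in the main fit, 21.7% without control B, 23.2% without tamoxifen D and 13.3% after thinning. Their summed share was 0.0862%, 0.522% and 0.143% of reads in control A, B and C and 0.421%, 1.05% and 1.64% in tamoxifen D, E and F. Within each group the highest shares were in libraries with over 10% unaligned reads, and within the classes the median differences were 2.12 and 1.68. Rps16, a protein of the small subunit, had the largest fitted difference but only 0, 0 and 0 reads in control and 7, 1 and 4 in tamoxifen libraries, whereas Rpl5 and Rps6 had negative values of -2.22 and -1.16 with overlap. Many ribosomal protein genes have processed pseudogenes of near-identical sequence, so their counts are uncertain where reads could be split. Translation factors gave 6 of 26 higher and 2 lower without overlap, with a median of 0.57, against 13.4% and 15% of all genes. The counts were 15 higher without control B (median 0.92, with 21.7% of all genes higher), and 1 higher and 2 lower with total counts (median 0.13). The list was led by Eef1b2 at 2.03 and Eif3f at 1.89, with Eif4a2 lowest at -2.20.

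The sex of the mice could bear on single genes. Of 5 genes linked to the X inactivation centre or the Y chromosome, Eif2s3y of the Y chromosome was higher without overlap, with 0, 1 and 138 reads in control and 876, 72 and 88 in tamoxifen libraries, and the other 4 overlapped. The part of sex in the comparison was not tested.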

How the data were processed

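RNA was amplified from full-length cDNA with SMART-Seq v4 and made into libraries with NEBNext Ultra II, per the labels' protocols. The deposited files hold raw counts per gene identifier, and the submitters' processing notes name FastQC 0.11.7, Trimmomatic 0.38, Bowtie2 2.3.5, STAR 2.7.0d, HTSeq 0.9.1 and edgeR. Which genome build, annotation and counting options were used is not given in the sources used here, so it is not known whether strand was used. The deposited table of log2 CPM made by the authors served only to check labels: each of the 12 Input and MG_TRAP libraries correlated best with its own column.

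Of 54146 identifiers, the 50714 shared by both sets of files were kept, and names came from GENCODE M21, which held 54079. HTSeq summary rows were left out of library sizes, and the unaligned share was taken from them. The 24 libraries of the first set were fitted together with edgeR 4.0.16 (R 4.3.3), 1 mean per group, TMM scaling, filterByExpr with a minimum count of 10 (14771 genes tested) and the quasi-likelihood test, with Benjamini-Hochberg adjustment over all genes and a threshold of 0.05. Log2 CPM values carry a prior count of 2. DESeq2 1.42.0, limma 3.58.1 voom, other scalings, no filter, thinning, fewer libraries and leaving out each replicate were alternatives, and a term for unaligned reads was added after the data were seen. Only the main edgeR fit of the MG_TRAP comparison was run on simulated counts, and its outcome is not reported here. P-values measure only the spread between these libraries. A fold against a group with at most 3 reads per library was computed against 3 reads, and such floors cover counting error only.

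Members and gene lists were chosen with earlier results of these data known. Some genes are in several lists, such as Trem2 and Tyrobp in the microglial and phagocytosis lists. The rule for named genes took core genes of each cell type, the 10 largest and 10 lowest differences among separated genes with an average log2 CPM of at least 4, and the extremes of each list. For the largest and lowest differences, symbols of Gm and a number, or ending in Rik, were left out. Lists described by counts alone are not named gene by gene. Some named genes are not reported here. Promoter windows are from RefSeq (GRCm38.p6).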

Additional observations from a re-analysis of the deposited data

How the results depend on the processing

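The count of genes called between tamoxifen and control MG_TRAP, 0 in edgeR, was 17 with relative log expression factors, 11 with total counts, 52 with no filter, 837 in DESeq2, 1197 in limma voom, 3 after thinning to equal depth and 2557 in voom with library quality weights. The voom fit with quality weights used the compared MG_TRAP libraries alone, where edgeR called 0 genes (smallest adjusted p 0.0532). EdgeR with all identifiers of the first set called 0 as well. The count was 491 in edgeR on the 12 Input and MG_TRAP libraries. With a term for unaligned reads it was 2 on 24 and 1145 on 12 libraries. Leaving out 1 replicate gave 0 to 8 calls (1 without control B, 8 without tamoxifen D, 2 without tamoxifen E). For the enrichment difference, 0 in edgeR became 21 with no filter, 209 in DESeq2, 41 in limma voom, 2 on 12 libraries, 232 with the unaligned term on 12 libraries, and 0 to 1 without 1 replicate (1 without control B). For Input, DESeq2 called 48 and leaving out 1 replicate called 0. The causes of these shifts were not tested. Genes without overlap numbered 2439 to 3714 upward and 2392 to 3277 downward with 1 replicate left out, which compares fewer values, and the upward count passed 1.5 times without control B (3494), control C (2993) and tamoxifen D (3714).

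With the replicate letter as a block the enrichment difference had 153 calls. Letters were not taken as pairing the libraries: deviations of same-letter Input and MG_TRAP libraries from their group means correlated at 0.14, 0.131, -0.0495, 0.273, 0.1 and 0.118 for A to F, and MG_TRAP C and F correlated better with another letter.

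Of the genes named in the text, these changed sign, all with overlapping groups; values are log2 differences. Mef2c (-0.10) was 0.16 with relative log expression factors, 0.0158 with no filter, 0.16 in DESeq2, 0.0034 on 6 libraries, 0.59 with quality weights, 0.10 on 12 libraries, and -0.39 to 0.55 with 1 replicate left out. S100b (-0.01) was 0.16, 0.0487, 0.16, 0.17, 2.04 and 0.0904 in the same order, and -0.60 to 2.25. Psap (-0.48) was 0.0268 and 0.42 with the unaligned term on 24 and 12 libraries, and -1.67 to 0.65. With quality weights Malat1 was 1.38, Grin2b 1.18 and Thy1 0.10. With 1 replicate left out they ranged from -0.96 to 1.85, -1.18 to 1.52 and -2.84 to 0.59, Cldn5 from -1.30 to 6.58, Cfp from -0.43 to 8.15 and Rpl5 from -2.80 to 4.42.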

Other observations

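Immediate early genes are induced within minutes to hours by activity or stress. Of 20 tested, 9 stood below without overlap, 3 above and 8 overlapped (15% of all genes tested stood below and 13.4% above), with a median log2 difference of -2.67, or -2.19 with 2 genes at their count bounds. The median was -1.29 without control B and -1.78 without control A. Dusp1, a phosphatase induced by MAP kinase signalling, had log2 CPM values of 7.88, 4.73 and 6.14 in control and -1.57, 2.38 and 1.74 in tamoxifen libraries, and Egr2, a zinc finger factor, of 5.36, 5.29 and 4.58 in control and -1.57, -0.50 and 0.71 in tamoxifen libraries. Atf3, a stress-induced factor, went the other way with 0, 0 and 1 reads in control and 333, 48 and 42 in tamoxifen libraries, at least 10.0-fold higher, and Btg2 differed by 1.71. Cholesterol synthesis genes gave 8 of 20 below and none above, with a median of -2.45, and 13 below and 1 above without control B, where 20.4% of all genes stood below. Sqle, squalene epoxidase, differed by -4.09 without overlap, and Ebp, a sterol isomerase, was the highest at 0.57 with overlap.

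Of 13 tested heat shock and unfolded protein genes, 6 stood below and 2 above without overlap (15% and 13.4% of all genes), with a median of -0.30 (-0.30 with 2 genes at their bounds). The median was 0.30 with 4 genes above without control A (18.1% of all genes), and 0.05 with relative log expression factors. Hspa1b, an inducible Hsp70 gene, had 546, 195 and 249 reads in control and 0, 1 and 2 in tamoxifen libraries, at least 47.4-fold lower (24.5-fold without control B), and Hspa1a, its near-identical neighbour, at least 14.9-fold lower (8.85-fold without control A), so reads of the pair may be split between them. Ddit3 and Atf4, factors of the integrated stress response, were higher by 1.53 and 1.30 without overlap. Of 20 tested mitochondrially encoded genes 1 was separated, downward. Without tamoxifen D 4 stood above and 1 below, without control B 1 above and 2 below, without tamoxifen E 4 below, and with total counts 3 below. Of all genes, 23.2% stood above without tamoxifen D, 20.4% below without control B, 18.1% below without tamoxifen E and 18% below with total counts. Of 9 tested genes of the estrogen response, a list read because tamoxifen binds estrogen receptors, 1 was separated upward, a share near the 13.4% of all genes, and 5 were without control C (18.8% of all genes) and 3 without control A (18.1%) or control B (21.7%). The 1 gene was Esr1, the estrogen receptor alpha, with values of 3.52, 2.36 and 2.94 in control and 6.27, 4.76 and 4.88 in tamoxifen libraries.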
